A study of Rattus norvegicus with 30 samples.

Results

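Lungs of rats that received dexamethasone (DEX), a synthetic glucocorticoid, during severe acute pancreatitis were compared between 6 and 24 h after the operation. The comparison rests on 6 of the 30 RNA-seq libraries of the series, 3 labelled DEX-24h and 3 labelled DEX-6h, each made from the lung of 1 rat. All 6 were male Sprague Dawley rats of 8 weeks that had fasted for 12 h, were anaesthetised with pentobarbital, had 5.0% sodium taurocholate infused into the biliopancreatic duct, and received carboxymethylcellulose without emodin into the stomach. The DEX-6h rats had received 1 intravenous dose of 10 mg/kg DEX at 2 h and were studied 4 h after it. The DEX-24h rats had received a second dose at 12 h and were studied 12 h after that dose. The hours since the operation, the number of doses, the hours since the last dose and, if all operations fell at 1 time of day, the time of day therefore differed together between the groups and cannot be told apart. The same hours were also compared in 3 other pairs of groups of 3 rats each, namely SAP (the taurocholate infusion with saline in place of DEX), Sham (the pancreas was only rotated) and Emo (the infusion followed by emodin given into the stomach). A further pair of 3 rats each, Con (saline in place of taurocholate), was set beside DEX in a few comparisons. The samples were whole lung from rats whose pulmonary artery had been rinsed with saline, so that every value is a mixture of all cells of the tissue, and in such tissue fewer cells of a type and less RNA per cell cannot be told apart.

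DEX acts through the glucocorticoid receptor, a transcription factor that moves to the nucleus when it binds the drug. There it raises transcription of genes such as Fkbp5, Tsc22d3 and the metallothioneins, and it lowers transcription of many cytokines and other genes driven by NF-kB and AP-1. Glucocorticoids are also known to lower the number of lymphocytes, to alter the surfactant-producing and fluid-clearing epithelium of the lung and to slow cell division.

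Reads on genes ranged from 28107243 to 33095751 in the 6 DEX libraries. In the study's mapping summary every DEX-6h library had a lower share of uniquely mapped reads than every DEX-24h library. The DEX-6h libraries also had higher GC content and duplication. The unique share was lower in every DEX, SAP and Emo library than in every Sham and Con library. The part of these differences in the results was not tested. The log2 CPM (counts scaled to library size) of rats in the same group correlated more closely across genes (Pearson r from 0.982 to 0.986) than those of rats in different groups (0.962 to 0.970), and no library stood apart from its group. Markers of lung were abundant in all 6 libraries, with Sftpc between 12733 and 27866 FPKM (fragments scaled to gene length and library size), Scgb1a1 between 24813 and 40529 FPKM and Cldn5 between 625 and 1224 FPKM. Of the pancreatic genes read, Prss1, Cpa1 and Amy2a3 stayed at or below 0.19 FPKM and Cela1 lay between 4.78 and 17.6 FPKM. Of the liver genes, Alb was at or below 0.17 FPKM and Apoa1 between 0.23 and 0.75 FPKM.

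Of 15934 genes tested, 514 (3.23%) rose and 623 (3.91%) fell between DEX-6h and DEX-24h at an adjusted p below 0.05 and a change of at least 2-fold, the definition of a DEG used throughout. Without the fold limit, 2170 genes (13.6%) were higher and 1958 (12.3%) were lower, and these shares are the background against which the counts of the gene lists are to be read. The median log2 fold change (24 h over 6 h) over all genes was 0.00085. Down-regulated genes changed more, with a median of 3.19-fold against 2.49-fold for up-regulated genes, and 78 of the 623 fell at least 8-fold while 17 of the 514 rose as much. The FPKM values of the 3 DEX-24h rats did not overlap those of the 3 DEX-6h rats for 487 of the up-regulated and 584 of the down-regulated genes, while the groups did not overlap for 42.5% of all genes tested. Of the 380 lncRNAs tested (lincRNA, antisense or sense intronic), 24 were up-regulated and 12 down-regulated. Leaving out single rats gave between 823 DEGs (without DEX-24h replicate 1) and 1028 (without DEX-24h replicate 2), and 470 of the 1137 DEGs were called without each of the 6 rats in turn.

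**Figure D1:**
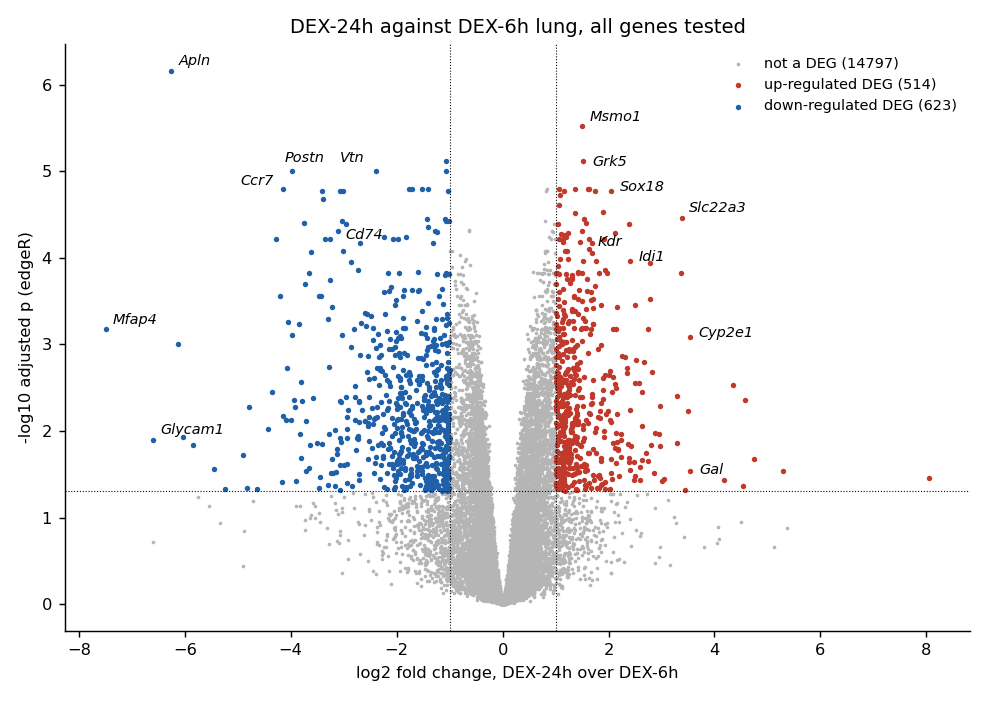
Each point is 1 of the 15934 genes, placed by its log2 fold change in DEX-24h over DEX-6h (x axis) and by -log10 of the adjusted p of edgeR's quasi-likelihood test (y axis). Dotted lines mark 2-fold and an adjusted p of 0.05. Apln has the smallest adjusted p, and Msmo1 and Grk5 have the smallest among up-regulated genes.

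The gene with the smallest p was Apln, the secreted peptide apelin, which is a ligand of endothelial cells in growing vessels and lies on chromosome X. Its level was 83.4, 113 and 53.7 FPKM in the 3 DEX-6h rats and 1.04, 0.79 and 1.45 FPKM in the 3 DEX-24h rats. It was thus 76.4-fold lower at 24 h (log2 fold change -6.26 ± 0.55 SE, n = 3 rats per group, adjusted p = 6.89e-07), with the groups far apart. The brackets that follow give the same quantities, the log2 fold change of 24 h over 6 h with its SE and the adjusted p, for 3 rats per group. Postn, Col6a6 and Sfrp2, genes of the extracellular matrix or its fibroblasts, also fell far. Postn, the matrix protein periostin, had 38.0, 65.4 and 74.5 FPKM at 6 h and 3.94, 4.62 and 2.55 FPKM at 24 h (log2 fold change -3.97 ± 0.44, adjusted p = 1.01e-05). Col6a6, a collagen VI chain, had 0.58, 1.43 and 1.21 FPKM at 6 h and 0.05, 0.06 and 0.05 FPKM at 24 h (-4.27 ± 0.60, adjusted p = 6.09e-05). Sfrp2, a secreted modulator of Wnt signalling made by fibroblasts, had 3.29, 9.21 and 7.89 FPKM at 6 h and 0.15, 0.50 and 0.45 FPKM at 24 h (-4.21 ± 0.70, adjusted p = 0.000276). In each of these genes every DEX-6h rat was above every DEX-24h rat. The matrix gene Mfap4 led the list by fitted fold change but rested on few reads, namely 29, 72 and 162 reads in the DEX-6h rats and 0, 0 and 1 in the DEX-24h rats. From the summed reads the ratio was 251 (95% interval 44.7 to 9955, counting error only). Amtn had 11, 171 and 47 reads at 6 h and 1, 2 and 0 at 24 h, a ratio of 72.9 (24.6 to 356).

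Several genes of white blood cells and lymphoid tissue were among the largest falls. Ccr7, the receptor that guides lymphocytes and dendritic cells along the lymph vessels, had 6.87, 7.04 and 5.00 FPKM at 6 h and 0.23, 0.29 and 0.55 FPKM at 24 h (log2 fold change -4.14 ± 0.50, adjusted p = 1.59e-05). Glycam1, a mucin-like ligand made by the high endothelial venules of lymph nodes, had 33.4, 5.23 and 24.6 FPKM at 6 h and 0.15, 0.18 and 0.31 FPKM at 24 h (-6.59 ± 1.87, adjusted p = 0.0126). Fcrl5, a receptor of B cells, had 5.17, 1.13 and 2.06 FPKM at 6 h and 0.14, 0.14 and 0.22 FPKM at 24 h (-4.06 ± 0.73, adjusted p = 0.000547). The DEX-6h rats differed widely among themselves in Glycam1, yet none came near the DEX-24h rats. Ngp, a granule protein of maturing neutrophils, had 21.1, 52.2 and 8.62 FPKM at 6 h and 2.41, 0.34 and 1.01 FPKM at 24 h (-4.43 ± 1.20, adjusted p = 0.0095), and Mcpt2, a protease of mucosal mast cells, had 1.34, 3.96 and 6.07 FPKM at 6 h and 0.18, 0.14 and 0.21 FPKM at 24 h (-4.36 ± 1.01, adjusted p = 0.00357). Klk6 and Ccer2 completed the 12 largest falls, with log2 fold changes of -4.79 and -4.14. Without single rats the log2 fold change of Fcrl5 was -3.23 (DEX-6h replicate 1), that of Klk6 -5.42 (DEX-24h replicate 1), and that of Ngp -5.32 (DEX-24h replicate 1) or -3.53 (DEX-6h replicate 2). Ccer2 was not called without DEX-6h replicate 1 (-2.51), nor Glycam1 without DEX-24h replicate 1.

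The largest rises included secreted factors, transporters and enzymes. Gal, the neuropeptide galanin, had 10.3, 32.6 and 30.1 FPKM in the DEX-6h rats and 199.6, 415 and 218 FPKM in the DEX-24h rats, a rise of 11.6-fold (log2 fold change 3.54 ± 1.17, adjusted p = 0.0287). Cyp2e1, a cytochrome P450 that oxidises ethanol and ketone bodies, had 19.3, 38.0 and 16.9 FPKM at 6 h and 313, 329 and 215 FPKM at 24 h, a rise of 11.6-fold (3.53 ± 0.67, adjusted p = 0.000822). Neither gene overlapped between the groups, although Gal varied about 3-fold among the DEX-6h rats. Slc22a3, a transporter of organic cations, had 0.17, 0.29 and 0.43 FPKM at 6 h and 3.04, 1.89 and 4.24 FPKM at 24 h (3.39 ± 0.44, adjusted p = 3.44e-05). Slc5a1, the sodium-driven glucose transporter SGLT1, had 0.07, 0.19 and 0.26 FPKM at 6 h and 2.41, 1.81 and 1.05 FPKM at 24 h (3.38 ± 0.52, adjusted p = 0.000151). Apoc1, an apolipoprotein, had 1.08, 2.16 and 1.79 FPKM at 6 h and 21.4, 7.17 and 5.38 FPKM at 24 h (2.77 ± 0.42, adjusted p = 0.000115). Both transporters and Apoc1 were thus low at 6 h and several-fold higher in every rat at 24 h. Wnt7a, a Wnt ligand, rose by 2.82 on the log2 scale, Il22ra2, a soluble receptor that binds interleukin-22, by 2.98, A2m, the protease inhibitor alpha-2-macroglobulin, by 3.29, Capn8 by 3.51, S100a7a by 3.30 and Gpr84 by 3.00 (adjusted p from 0.0021 for Wnt7a to 0.0382 for Gpr84). Some of these sizes rested on single rats. The log2 fold change of Capn8 was 2.65 without DEX-24h replicate 3 and 4.24 without DEX-6h replicate 2, that of Wnt7a was 2.18 without DEX-24h replicate 3, and that of Apoc1 was 1.94 without DEX-24h replicate 1. S100a7a had 0, 0.25 and 0.13 FPKM at 6 h and 1.02, 1.80 and 1.00 FPKM at 24 h, with a log2 fold change of 4.14 without DEX-6h replicate 2, and it was not called without DEX-6h replicate 1. Gpr84 had 0.28, 0.12 and 0.03 FPKM at 6 h and 1.58, 0.57 and 1.39 FPKM at 24 h, with 3.96 without DEX-6h replicate 1, and it was not called with the replicate number as a block or without DEX-24h replicate 1 or 3 or DEX-6h replicate 2 or 3. Gal was called without DEX-24h replicate 1 or 3 and lost without each other rat.

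Among DEGs whose groups did not overlap, S100a6 rose most by the absolute difference in level. This small calcium-binding protein had 1228, 1946 and 1444 FPKM at 6 h and 3729, 4120.2 and 4401 FPKM at 24 h (log2 fold change 1.42 ± 0.22, adjusted p = 0.000148). Calm2, one of the calmodulin genes, had 346, 521 and 439 FPKM at 6 h and 896, 923 and 887 FPKM at 24 h (1.07 ± 0.17, adjusted p = 0.000155), Rgcc had 463, 439.6 and 398 FPKM at 6 h and 926, 904 and 1051 FPKM at 24 h (1.16 ± 0.35, adjusted p = 0.0175), and the lysosomal protease gene Ctsl had 254, 275 and 192 FPKM at 6 h and 547, 494 and 454 FPKM at 24 h (1.06 ± 0.24, adjusted p = 0.00352). In each of these abundant genes the lowest DEX-24h rat was above the highest DEX-6h rat. The largest absolute fall among these DEGs was in Mgp, the matrix protein that keeps calcium from depositing and binds BMP ligands, with 4011, 3886 and 3448 FPKM at 6 h and 749, 744 and 1412 FPKM at 24 h (-1.96 ± 0.30, adjusted p = 0.000151). Bgn, the matrix proteoglycan biglycan, had 318, 444 and 504 FPKM at 6 h and 79.7, 155 and 71.3 FPKM at 24 h (-2.02 ± 0.34, adjusted p = 0.000309). Lyve1, a hyaluronan receptor of lymphatic endothelium, had 243, 399.7 and 391 FPKM at 6 h and 60.4, 88.7 and 105 FPKM at 24 h (-2.01 ± 0.37, adjusted p = 0.000719). The remaining large falls, Cd74, Mt2A and Mt1, are described with their groups.

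Among the lncRNAs, AABR07065531.5 on chromosome 6 rose most, from 8.16, 2.23 and 1.34 FPKM at 6 h to 33.8, 38.5 and 24.6 FPKM at 24 h (log2 fold change 3.05 ± 1.05, adjusted p = 0.0355). Dlk1, a membrane protein related to Notch ligands, had 242, 131 and 198 FPKM at 6 h and 377, 588 and 529 FPKM at 24 h (1.41 ± 0.52, adjusted p = 0.0479), a call that was lost with the replicate number as a block and without each of the 6 rats. The SNORD113 copy ENSRNOG00000060706, one of a repeated family whose reads can be shared, had 1, 0 and 0 reads at 6 h and 19, 2 and 17 at 24 h, a ratio of 39.8 (95% interval 6.72 to 1613). The second copy tested, ENSRNOG00000056115, did not pass (log2 fold change 1.94 ± 1.11, adjusted p = 0.206, and 2.75 without DEX-6h replicate 1). Of the other lncRNAs, AC141334.3 rose by 2.24 and Rn60_1_0435.2 by 1.83, while AABR07051716.2 fell by 3.71, AABR07051592.1 by 3.41 and AABR07052504.1 by 2.29 on the log2 scale. The calls of AC141334.3 and AABR07052504.1 were lost when the DEX libraries were fitted alone with the replicate number as a block. The log2 fold change of AABR07065531.5 was 4.20 without DEX-6h replicate 1, and it was not called without DEX-24h replicate 1 or 2 or DEX-6h replicate 2 or 3. That of AABR07051716.2 was -5.17 without DEX-24h replicate 3 and -2.83 without DEX-6h replicate 3, and that of AABR07052504.1 was -1.66 without DEX-6h replicate 2. AABR07051592.1 was not called without DEX-6h replicate 1 (-2.02) or DEX-24h replicate 3. The groups overlapped in AABR07051716.2, which had 8.99, 0.62 and 18.1 FPKM at 6 h and 0.16, 0.33 and 1.58 FPKM at 24 h.

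**Figure D2:**
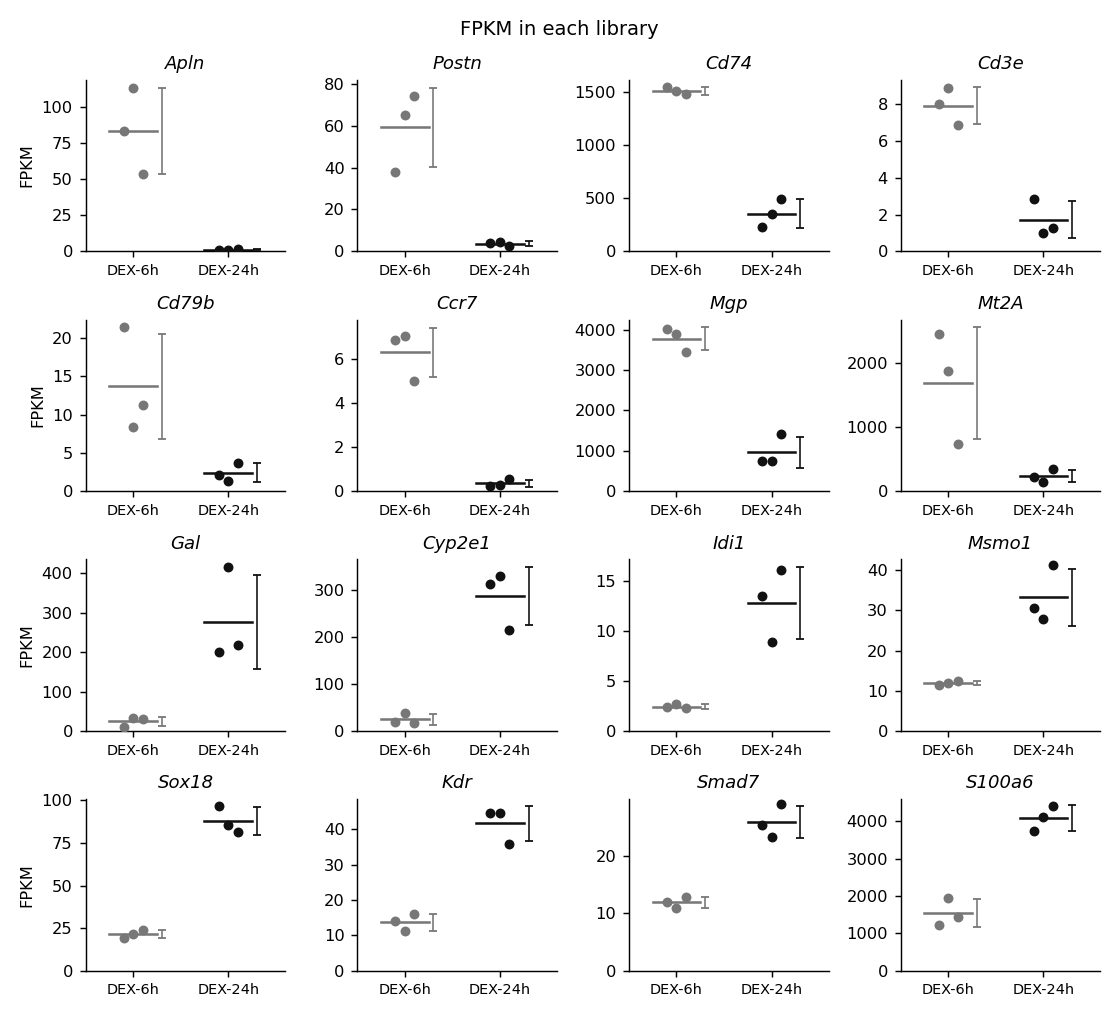
FPKM of 16 genes in each DEX library, with 1 point per rat, the mean as a horizontal line and the SD as the bar beside it. In every gene drawn the 3 DEX-24h rats lie apart from the 3 DEX-6h rats, for example Apln with 53.7 FPKM or more at 6 h and 1.45 FPKM or less at 24 h.

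T cell genes fell together. Of 15 T cell genes tested, 12 were lower at 24 h at an adjusted p below 0.05 and 0 were higher, where 12.3% of all genes were lower, and the median log2 fold change of the list was -1.97. The chains of the CD3 complex, which passes the signal of the T cell receptor into the cell, all fell. Cd3e had 8.05, 8.87 and 6.88 FPKM at 6 h and 2.87, 1.01 and 1.25 FPKM at 24 h (log2 fold change -2.19 ± 0.51, adjusted p = 0.0038). Cd3d had 6.82, 7.96 and 5.94 FPKM at 6 h and 1.90, 1.05 and 1.13 FPKM at 24 h (-2.32 ± 0.49, adjusted p = 0.00188), and Cd3g fell by 2.03 on the log2 scale. Without DEX-24h replicate 1 the log2 fold changes of Cd3e and Cd3g were -2.78 and -2.63, and Cd3g was not called without DEX-24h replicate 2. The kinases Lck and Zap70, which act next to the receptor, fell by 1.80 and 2.02. Cd8a, of cytotoxic T cells, had 5.01, 5.86 and 4.94 FPKM at 6 h and 2.11, 0.88 and 0.97 FPKM at 24 h (-1.97 ± 0.66, adjusted p = 0.0315). Cd4, of helper T cells and also of rat macrophages, had 8.51, 9.12 and 13 FPKM at 6 h and 4.21, 5.49 and 5.66 FPKM at 24 h (-0.97 ± 0.35, adjusted p = 0.0413). The fall was thus about 4-fold in most of these genes and about 2-fold in Cd4, and the groups did not overlap in any of those named. Cd8a was called only in the full set and without DEX-24h replicate 1, and Cd4 only in the full set and without DEX-6h replicate 1. Trat1, Cd28 and Il7r did not pass. The summed FPKM of the list lay between 62.7 and 71.9 in the DEX-6h rats and between 18.8 and 26.7 in the DEX-24h rats. Among cytotoxic and natural killer cell genes 1 of 11 passed, the chemokine gene Ccl5, with 124, 178 and 127 FPKM at 6 h and 57.4, 31.3 and 14.1 FPKM at 24 h (-2.04 ± 0.54, adjusted p = 0.0084). The number of these genes that fell was 3 without DEX-24h replicate 1, 2 when the DEX libraries were fitted alone, and 5 when they were fitted alone with the replicate number as a block.

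B cell genes fell in the same way, with 7 of 11 lower, 0 higher and a median log2 fold change of -1.92. Cd79a and Cd79b code for the signalling chains of the B cell receptor. Cd79a had 26.2, 19.4 and 19.4 FPKM at 6 h and 5.60, 3.19 and 5.39 FPKM at 24 h (log2 fold change -2.19 ± 0.40, adjusted p = 0.000694). Cd79b had 21.4, 8.4 and 11.2 FPKM at 6 h and 2.13, 1.30 and 3.72 FPKM at 24 h (-2.52 ± 0.55, adjusted p = 0.00249). Pax5, the transcription factor that maintains B cell identity, Ms4a1, Blk and Fcrla also fell, by 2.61, 2.01, 1.92 and 1.65 on the log2 scale. Pax5 had 1.24, 0.76 and 0.64 FPKM at 6 h and 0.04, 0.02 and 0.37 FPKM at 24 h, and Ms4a1 had 7.37, 2.65 and 3.81 FPKM at 6 h and 0.54, 0.78 and 2.11 FPKM at 24 h. The log2 fold change of Pax5 was -4.59 without DEX-24h replicate 3, and Pax5 was not called without DEX-24h replicate 1 (-2.12) or with the DEX libraries fitted alone, with or without the replicate number as a block. That of Ms4a1 was -2.78 without DEX-24h replicate 3, and Ms4a1 was not called without DEX-24h replicate 1 or 2 or DEX-6h replicate 1 or with the block in the main model, nor Fcrla without DEX-24h replicate 3 or DEX-6h replicate 2. DEX-6h replicate 1 was the highest rat in Cd79a and Cd79b, and no DEX-24h rat reached the lowest DEX-6h rat. The genes of the list that mark plasma cells, Mzb1 and Tnfrsf17, did not pass, nor did Cr2 and Pou2af1. Bank1, a B cell gene outside the list, did not pass either (0.13 ± 0.25, adjusted p = 0.736).

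MHC class II molecules, which present peptides to CD4+ T cells, are made by B cells, dendritic cells and macrophages, and in rat lung by type 2 cells as well. Of 10 genes of the class II pathway 7 fell, 0 rose, and the median log2 fold change was -1.90. Cd74, the invariant chain that escorts class II molecules, had 1549, 1509.6 and 1477 FPKM at 6 h and 226, 349.6 and 491 FPKM at 24 h (log2 fold change -2.08 ± 0.29, adjusted p = 6.09e-05). RT1-Da, an alpha chain, had 166, 179 and 156 FPKM at 6 h and 28.8, 41.4 and 65.1 FPKM at 24 h (-1.88 ± 0.34, adjusted p = 0.000646). RT1-Db1, a beta chain, had 57.5, 56.8 and 74.9 FPKM at 6 h and 8.45, 10.9 and 20.8 FPKM at 24 h (-2.22 ± 0.39, adjusted p = 0.000443). Ciita, the co-activator that class II transcription needs, had 1.90, 1.78 and 1.91 FPKM at 6 h and 0.52, 0.66 and 1.16 FPKM at 24 h (-1.24 ± 0.31, adjusted p = 0.00601). The 3 DEX-6h rats lay close together in Cd74 while the DEX-24h rats spread about 2-fold, and in each of these genes DEX-24h replicate 1 was the lowest and replicate 3 the highest rat of its group. RT1-Ba, RT1-DOa and RT1-DOb fell by 2.59, 2.08 and 1.83 on the log2 scale, and RT1-Ba was not called without DEX-6h replicate 3 (-1.52). RT1-DMa, RT1-DMb and RT1-Bb did not pass. RT1 genes are close relatives of each other and reads that mapped more than once were discarded, so that their levels carry the uncertainty of shared sequence. In the other groups at 24 h the summed FPKM of the list was 995 to 1409 in SAP, 1209 to 1851 in Sham and 1133 to 1796 in Emo, against 276 to 603 in DEX.

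The promoters of class II genes carry short boxes that bind the factors through which Ciita acts, and because these genes fell together their promoters are shown. RefSeq promoters (build GRCr8) were present for 8 of the 10 genes of the list, all but Ciita and RT1-DMb. The Y box was searched as CTGATTGG, which contains the reverse of a CCAAT box, and a core of the X box as GCAACNG, each on both strands of the 250 bases before the start. The Y box letters were found in 5 of the 8 promoters (RT1-Ba, RT1-Bb, RT1-DOa, RT1-Da and RT1-Db1), against 3.19% of 33469 promoters, and the X box letters in 4 of 8 (RT1-Ba, RT1-DOb, RT1-Da and RT1-Db1), against 9.78% of all. Below, 130 bases of the promoters of 4 genes that fell are written 5′ to 3′ on the strand of the gene, with the matches in capitals.
RT1-Da, chr20:4515285-4515414, plus strand: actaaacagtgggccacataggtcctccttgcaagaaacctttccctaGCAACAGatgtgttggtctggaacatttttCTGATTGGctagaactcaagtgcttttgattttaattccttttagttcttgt
RT1-Db1, chr20:4560177-4560306, minus strand: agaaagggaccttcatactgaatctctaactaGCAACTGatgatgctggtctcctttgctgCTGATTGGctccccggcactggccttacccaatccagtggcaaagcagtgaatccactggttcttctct
RT1-Ba, chr20:4576927-4577056, plus strand: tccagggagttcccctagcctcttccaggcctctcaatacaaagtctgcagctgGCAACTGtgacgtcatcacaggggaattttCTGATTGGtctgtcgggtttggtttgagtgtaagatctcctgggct
RT1-DOa, chr20:4758465-4758594, minus strand: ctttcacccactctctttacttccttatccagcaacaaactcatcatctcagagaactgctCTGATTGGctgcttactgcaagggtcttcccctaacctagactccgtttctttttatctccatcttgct
In RT1-Da, RT1-Db1 and RT1-Ba the X box letters came first and the Y box letters followed. The first base of the Y box match lay 52, 83 and 46 bases before the start in these genes, and 110 bases before it in RT1-DOa. RT1-Bb holds the letters and did not pass the test (-1.92 ± 0.73, adjusted p = 0.0547), although it passed without DEX-24h replicate 2 (-2.64), with DESeq2, and with the DEX libraries fitted alone with or without the replicate number as a block, and RT1-DOb lacks the Y box letters in this window and fell. A match is a description of the sequence and says nothing of whether the site is bound.

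Cholesterol synthesis ran the other way. Of 18 genes of the pathway and its control 14 rose and 0 fell, where 13.6% of all genes rose, and the median log2 fold change was 1.04. Hmgcs1 makes the precursor HMG-CoA and had 5.21, 7.39 and 6.08 FPKM at 6 h and 15.5, 14.6 and 25.3 FPKM at 24 h (1.58 ± 0.21, adjusted p = 3.92e-05). Idi1, which isomerises the isoprene unit, rose most, from 2.37, 2.69 and 2.26 FPKM at 6 h to 13.5, 8.85 and 16 FPKM at 24 h (2.40 ± 0.36, adjusted p = 0.000108). Both enzymes were higher in each DEX-24h rat than in any DEX-6h rat. Of the later enzymes that close and trim the sterol rings, Sqle rose by 1.31, Lss by 1.03, Cyp51 by 1.21, Dhcr7 by 1.08 and Sc5d by 0.95 on the log2 scale. Msmo1, the sterol C4-methyl oxidase, had 11.3, 11.8 and 12.5 FPKM at 6 h and 30.7, 27.8 and 41.2 FPKM at 24 h and the smallest p of any up-regulated gene (1.50 ± 0.15, adjusted p = 3.02e-06). Insig1, which holds the sterol sensor back in the endoplasmic reticulum, had 21.4, 24.9 and 31.4 FPKM at 6 h and 64.8, 47.4 and 84.6 FPKM at 24 h (1.36 ± 0.17, adjusted p = 3.04e-05). DEX-24h replicate 3 was the highest rat in Idi1, Msmo1 and Insig1, and the lowest DEX-24h rat was still above every DEX-6h rat. Mvd, Mvk and Srebf2, the transcription factor of the pathway, did not pass.

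The same 8 letters CTGATTGG stood in 5 of the 13 promoters found for this list (Fdps, Idi1, Lss, Mvk and Sc5d), and 3 of them are shown because these genes rose, while 4 of the 5 class II genes with the same letters fell. Fdft1 and Sqle were among those with no entry in the promoter table.
Idi1, chr17:66547525-66547654, minus strand: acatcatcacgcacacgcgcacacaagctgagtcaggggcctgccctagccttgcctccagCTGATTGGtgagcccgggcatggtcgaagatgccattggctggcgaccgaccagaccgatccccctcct
Lss, chr20:12118247-12118376, minus strand: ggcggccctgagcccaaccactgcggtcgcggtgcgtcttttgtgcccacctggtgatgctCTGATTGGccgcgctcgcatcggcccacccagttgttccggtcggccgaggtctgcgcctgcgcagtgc
Sc5d, chr8:51538299-51538428, minus strand: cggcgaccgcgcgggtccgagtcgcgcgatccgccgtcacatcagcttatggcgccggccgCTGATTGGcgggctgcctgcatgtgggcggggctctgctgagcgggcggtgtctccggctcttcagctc
The match began 69, 85 and 90 bases before the start. None of the 13 promoters held the X box letters in the window searched, and Mvk, which holds the Y box letters, did not pass the test.

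**Figure D3:**
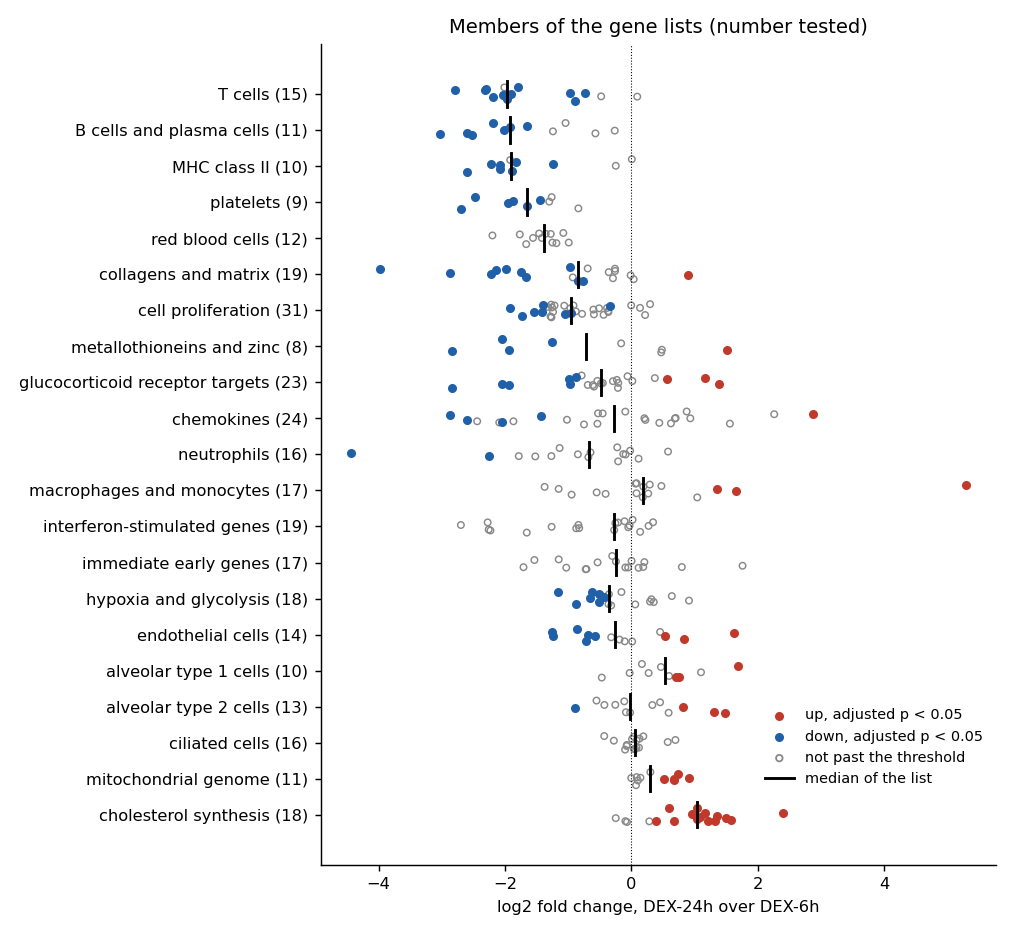
Each point is a tested member of a gene list (number tested in brackets), placed by its log2 fold change in DEX-24h over DEX-6h. Filled points passed an adjusted p of 0.05 over all genes, and the black bar is the list's median, which was -1.97 for T cells and 1.04 for cholesterol synthesis.

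Of 23 entries of known glucocorticoid targets tested, 3 were higher at 24 h and 6 lower, where 13.6% of all genes rose and 12.3% fell, with a median log2 fold change of -0.48, and 18 had a negative and 5 a positive log2 fold change. In Emo, which received no DEX, 14 fell and 1 rose, where 16.8% of all genes fell and 17.3% rose (median -1.03), while the medians were 0.02 in SAP and -0.14 in Sham. Fkbp5, an inhibitory partner of the receptor that DEX induces, had 216, 167 and 208 FPKM at 6 h and 169, 177 and 157 FPKM at 24 h (log2 fold change -0.21 ± 0.42, adjusted p = 0.749), and the groups overlapped. Tsc22d3, the leucine zipper gene GILZ, has 2 entries in the files, and the abundant one had 497, 555 and 464 FPKM at 6 h and 374, 375 and 348 FPKM at 24 h (-0.45 ± 0.29, adjusted p = 0.259). Sgk1, a kinase that raises sodium transport, rose from 43.0, 39.3 and 41.0 FPKM at 6 h to 119, 79.0 and 75.6 FPKM at 24 h (1.17 ± 0.20, adjusted p = 0.000444). Angptl4, an inhibitor of lipoprotein lipase, rose from 8.78, 11.7 and 14.9 FPKM at 6 h to 30.2, 32.9 and 27.5 FPKM at 24 h (1.38 ± 0.30, adjusted p = 0.00227), and Sult1a1 rose by 0.56. Both Sgk1 and Angptl4 were higher in every DEX-24h rat. Pdk4, which holds back glucose oxidation, fell from 49.3, 41.6 and 73.1 FPKM at 6 h to 25.9, 24.8 and 31.3 FPKM at 24 h (-0.97 ± 0.34, adjusted p = 0.0372), Errfi1 fell by 0.99 and Map3k6 by 0.88 on the log2 scale. Errfi1, Map3k6 and Sult1a1 were called only in the full set of rats, and not Map3k6 with the block in the main model, and Pdk4 was called only in the full set and without DEX-6h replicate 2. The other entries that fell were 1 of Mt2A and 2 of Mt1. The count of rising targets was 2 without each of the 6 rats. The count of falling targets depended on the rats and the model, with 0 without DEX-24h replicate 1 or 2, 1 without DEX-6h replicate 1, 2 without DEX-24h replicate 3 or DEX-6h replicate 2, 3 without DEX-6h replicate 3, 11 when the DEX libraries were fitted alone and 12 when they were fitted alone with the replicate number as a block. The receptor gene Nr3c1 itself has 2 entries, of which the one that passed had 8.69, 8.01 and 9.04 FPKM at 6 h and 16.1, 14.0 and 13.1 FPKM at 24 h (0.77 ± 0.12, adjusted p = 0.000192). Hsd11b1, which regenerates active glucocorticoid from its inactive form, rose by 0.70, a call that was lost without each rat except DEX-6h replicate 2.

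Metallothioneins, small proteins that bind zinc and copper, were high at 6 h. Mt2A had 2452, 1879.7 and 738 FPKM in the DEX-6h rats and 222, 149 and 344 FPKM in the DEX-24h rats (log2 fold change -2.84 ± 1.02, adjusted p = 0.0435), a call that was lost with the replicate number as a block in the main model and without each rat except DEX-6h replicate 3. Mt1 has an entry on chromosome 17 and another on chromosome 19, and their reads may be shared. The entry on chromosome 17 had 886, 695 and 349 FPKM at 6 h and 147, 148 and 173 FPKM at 24 h (-2.04 ± 0.62, adjusted p = 0.0177), and that on chromosome 19 had 31.3, 18.6 and 10.9 FPKM at 6 h and 5.43, 5.35 and 5.12 FPKM at 24 h (-1.93 ± 0.65, adjusted p = 0.0312). DEX-6h replicate 3 was the lowest of its group in all 3 entries and was still above every DEX-24h rat. The zinc importer genes moved apart, with Slc39a14 at -1.26 and Slc39a8 at 1.52 on the log2 scale. These falls were not called in every subset of rats: of the 8 metallothionein and zinc entries tested 4 fell, and the number was 1 without DEX-24h replicate 1 or 2 or DEX-6h replicate 1, and 2 without DEX-24h replicate 3 or DEX-6h replicate 2. In SAP, which received no DEX, the change of Mt2A did not pass (1.22 ± 0.97, adjusted p = 0.451), and in Emo it fell as in DEX (-2.86 ± 1.02, adjusted p = 0.0337). The difference between DEX and SAP did not pass (adjusted p = 0.203).

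The promoters of Mt1 and Mt2A are shown because metallothionein genes are controlled through metal response elements, whose core was searched as TGCGCNC or TGCACNC on both strands. The 250 bases before the start of Mt1 held 6 matches, 5 of them on the strand of the gene, and those of Mt2A held 4, 1 of them on that strand. At least 4 matches stood in 0.266% of the 33469 promoters and at least 1 in 20.6%.
Mt1, chr19:10832976-10833225, minus strand: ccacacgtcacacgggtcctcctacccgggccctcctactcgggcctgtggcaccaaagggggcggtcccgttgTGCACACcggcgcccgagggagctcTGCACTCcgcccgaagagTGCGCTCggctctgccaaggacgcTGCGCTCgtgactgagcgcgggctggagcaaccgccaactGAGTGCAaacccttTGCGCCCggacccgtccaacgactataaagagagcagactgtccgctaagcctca
Mt2A, chr19:10838709-10838958, minus strand: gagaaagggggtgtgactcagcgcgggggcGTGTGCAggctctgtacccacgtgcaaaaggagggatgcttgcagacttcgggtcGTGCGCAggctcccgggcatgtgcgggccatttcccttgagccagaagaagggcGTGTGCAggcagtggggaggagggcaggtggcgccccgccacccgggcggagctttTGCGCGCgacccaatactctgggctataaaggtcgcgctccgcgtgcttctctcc
Capitals mark the matches, and matches on the opposite strand appear as their reverse complement.

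Inflammatory mediators changed gene by gene. Of 12 cytokine genes 2 fell and 1 rose, where 12.3% of all genes fell and 13.6% rose. Il1a, the alarm cytokine interleukin-1 alpha, had 39.9, 33.7 and 29.5 FPKM at 6 h and 5.50, 2.59 and 2.55 FPKM at 24 h (log2 fold change -3.26 ± 0.51, adjusted p = 0.000178), and the groups were far apart. Osm, oncostatin M, fell by 1.38 and Areg, an epithelial growth factor, rose by 2.48, with DEX-24h replicate 3 at 32.2 FPKM and the other two at 4.02 and 6.77 FPKM. Areg was not called without DEX-24h replicate 3 (log2 fold change 1.09) or without any 1 of the DEX-6h rats, and Osm was called in the full set and without DEX-6h replicate 3. Of 24 chemokine genes 4 fell and 1 rose, to be read against the same shares, with a median of -0.28. Ccl5 is the fall described above. Cxcl14, an epithelial chemokine, had 59.6, 93.8 and 40.6 FPKM at 6 h and 8.11, 10.0 and 8.44 FPKM at 24 h (-2.87 ± 0.43, adjusted p = 0.000111). Ccl21, the ligand of Ccr7, had 108, 211 and 264 FPKM at 6 h and 20.7, 28.9 and 45.2 FPKM at 24 h (-2.60 ± 0.45, adjusted p = 0.000429), so that receptor and ligand were both lower. Cxcl12, which retains white blood cells in tissue, had 2.97, 2.63 and 4.35 FPKM at 6 h and 1.08, 1.29 and 1.26 FPKM at 24 h (-1.43 ± 0.32, adjusted p = 0.0028). The neutrophil chemokine Cxcl6 rose from 0.03, 0.05 and 0.05 FPKM at 6 h to 0.47, 0.13 and 0.41 FPKM at 24 h, and was called only in the full set and without DEX-24h replicate 2 or DEX-6h replicate 1. Of 12 NF-kB feedback genes Bcl3, Nfkbib and Nfkb2 fell by 1.20, 0.64 and 0.57 on the log2 scale, but 0 were called without DEX-24h replicate 2 and 1 without DEX-6h replicate 1. Socs3 and Cish, feedback inhibitors of cytokine receptors, fell by 1.45 and 0.86, and Socs6 rose by 0.44, and these 3 calls were also lost without single rats (both falls without DEX-24h replicate 1, and Socs3 also with the replicate number as a block). None of 17 immediate early genes and none of 19 interferon-stimulated genes passed edgeR's test at an adjusted p of 0.05, with medians of -0.25 and -0.27. At an unadjusted p under 0.05, 3 immediate early and 0 interferon-stimulated genes were lower, where 18.3% of all genes were, and DESeq2 also called 3 and 0. With the DEX libraries fitted alone 2 and 1 fell, and 4 and 4 with the replicate number as a block as well. On leaving out single rats, 0 to 2 immediate early genes and 0 interferon-stimulated genes fell. Orm1, the acute phase protein orosomucoid, rose from 13.6, 14.1 and 11.6 FPKM at 6 h to 61.5, 58.1 and 54.9 FPKM at 24 h (2.16 ± 0.62, adjusted p = 0.0134), while Lbp, which carries bacterial lipopolysaccharide, fell by 0.94. Orm1 was not called without DEX-6h replicate 3, nor Lbp without DEX-24h replicate 1.

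Few markers of myeloid cells passed. Of 17 macrophage and monocyte genes 3 rose and 0 fell in edgeR's test (4 were lower at an unadjusted p under 0.05 and 1 by DESeq2). Those that rose were the scavenger receptors Cd163, Msr1 and Marco. Cd163 had 1.96, 2.29 and 2.68 FPKM at 6 h and 7.61, 8.23 and 5.63 FPKM at 24 h (log2 fold change 1.65 ± 0.31, adjusted p = 0.00076). Msr1 had 1.16, 2.35 and 1.43 FPKM at 6 h and 4.50, 4.79 and 3.26 FPKM at 24 h (1.36 ± 0.40, adjusted p = 0.0166). Marco rested on 1 read at 6 h and 58 at 24 h, a ratio of 60.7 (95% interval 10.5 to 2440). The median of the list was 0.18, with 12 members positive and 5 negative, and 1 member rose without DEX-6h replicate 1 or 3. Of 16 neutrophil genes 2 fell, Ngp and Retnlg (-2.26 ± 0.70, adjusted p = 0.0207), and the median was -0.66. Of all the neutrophil genes 1 fell without DEX-24h replicate 1 or 3 or DEX-6h replicate 2, 4 with the DEX libraries fitted alone, and 5 with the block as well. Of 9 platelet genes 6 fell, with a median of -1.65, against -1.57 in SAP, -1.05 in Emo and -0.36 in Sham. Gp9, a chain of the platelet receptor for von Willebrand factor, had 6.86, 8.15 and 4.61 FPKM at 6 h and 1.34, 0.71 and 0.96 FPKM at 24 h. Itga2b, a chain of the fibrinogen receptor, had 11.6, 10.7 and 6.84 FPKM at 6 h and 4.40, 1.6 and 3.29 FPKM at 24 h. The count of falling platelet genes was 1 without DEX-24h replicate 2 and 2 without DEX-24h replicate 3, which had lower levels than replicate 1. None of 12 red blood cell genes passed edgeR's test (2 at an unadjusted p under 0.05, 0 by DESeq2), although all 12 had a negative log2 fold change (median -1.39, against -2.92 in SAP, -3.08 in Emo and -0.58 in Sham). On leaving out single rats, 0 to 2 of these genes fell. Their summed FPKM ranged from 978 to 8319 among the DEX-6h rats and from 1669 to 2079 among the DEX-24h rats.

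Matrix genes of fibroblasts were lower at 24 h. Of 19 collagen and matrix genes 10 fell and 1 rose, with a median of -0.84, and 5 fell without DEX-24h replicate 1. The median was -1.02 in Emo, where 12 fell (16.8% of all genes), -0.84 in SAP, where 9 fell (2.84% of all genes), and -0.46 in Sham. Col3a1, a fibrillar collagen of lung, had 146, 377 and 429.7 FPKM at 6 h and 46.5, 97.5 and 54.9 FPKM at 24 h (log2 fold change -2.23 ± 0.48, adjusted p = 0.00226). Col1a1, the main chain of collagen I, had 75.8, 140.0 and 257 FPKM at 6 h and 27.3, 60 and 28.2 FPKM at 24 h (-1.99 ± 0.54, adjusted p = 0.00925). Col14a1, a collagen that coats fibrils, had 4.11, 3.99 and 8.27 FPKM at 6 h and 0.72, 0.71 and 0.76 FPKM at 24 h (-2.87 ± 0.56, adjusted p = 0.00108). DEX-6h replicate 1 was the lowest DEX-6h rat in Col3a1, Col1a1 and Postn, and it remained above each DEX-24h rat. Tnc, Loxl2 and Col1a2 fell by 2.14, 1.75 and 1.68, and Col6a1, Col6a2 and Col5a1 by 0.84, 0.98 and 0.77. The log2 fold change of Col1a2 was -2.37 without DEX-24h replicate 2. Lox, the enzyme that cross-links collagen, rose from 36.7, 41.1 and 32.2 FPKM at 6 h to 64.9, 66.3 and 71.8 FPKM at 24 h (0.89 ± 0.30, adjusted p = 0.03). The basement membrane chains Col4a1 and Col4a2 did not pass. Lox passed in the full set and without DEX-6h replicate 2 only.

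Endothelial genes changed in both directions. Of 14 endothelial genes 6 fell and 3 rose, with a median of -0.26, and 3 fell without DEX-24h replicate 3. The number that rose was 1 without DEX-24h replicate 1 or 3 or without DEX-6h replicate 2 or 3. Kdr, the VEGF receptor 2, had 14.1, 11.1 and 15.9 FPKM at 6 h and 44.7, 44.5 and 35.9 FPKM at 24 h (log2 fold change 1.63 ± 0.23, adjusted p = 8.01e-05). Eng, the BMP co-receptor endoglin, had 213, 205 and 202 FPKM at 6 h and 396, 296 and 407 FPKM at 24 h (0.84 ± 0.26, adjusted p = 0.0215), and the angiopoietin receptor gene Tek rose by 0.52. Nrp1, a co-receptor for VEGF, had 5.69, 6.26 and 8.02 FPKM at 6 h and 13.7, 16 and 13.1 FPKM at 24 h (1.13 ± 0.25, adjusted p = 0.0027). Sox18, a transcription factor of endothelium, had 19.1, 21.7 and 23.9 FPKM at 6 h and 96.8, 85.5 and 81.2 FPKM at 24 h (2.04 ± 0.25, adjusted p = 1.7e-05). Every DEX-24h rat was thus above every DEX-6h rat in Kdr, Nrp1 and Sox18, while the ligand gene Apln was lower. Esam, an adhesion molecule of endothelial junctions, fell from 260.0, 246 and 196 FPKM at 6 h to 90.4, 103 and 98.6 FPKM at 24 h (-1.25 ± 0.22, adjusted p = 0.000511). Nos3, the endothelial nitric oxide synthase, fell from 8.67, 8.05 and 8.22 FPKM at 6 h to 3.96, 3.07 and 3.42 FPKM at 24 h (-1.24 ± 0.19, adjusted p = 0.000153). The junction protein gene Cldn5 and the genes Tie1, Ednrb and Vwf fell by 0.69, 0.87, 0.72 and 0.58, and Vwf was not called with the replicate number as a block. Of the endothelial activation genes, Thbd, the anticoagulant thrombomodulin, fell from 254, 245 and 239 FPKM at 6 h to 119, 133 and 114 FPKM at 24 h (2.00-fold lower, adjusted p = 8.25e-05), while Icam1 and Plau rose by 0.89 and 1.36. Icam1 was not called without DEX-24h replicate 3 or DEX-6h replicate 1 or with the DEX libraries fitted alone.

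In the epithelium single genes passed and most cell markers did not. None of 16 genes of ciliated cells passed edgeR's test (1 at an unadjusted p under 0.05, 0 by DESeq2), with a median of 0.05. In type 2 cells, which make surfactant, Lamp3, of the organelles that store it, rose from 28.3, 40.0 and 35.7 FPKM at 6 h to 77.7, 81.5 and 95.1 FPKM at 24 h (log2 fold change 1.30 ± 0.22, adjusted p = 0.000393). Lpcat1, which makes the main surfactant lipid, rose from 39.7, 45.3 and 57.7 FPKM at 6 h to 66.2, 89.0 and 90.8 FPKM at 24 h (0.81 ± 0.20, adjusted p = 0.00581). Cd36, a fatty acid transporter, rose by 1.48, and Fasn, the fatty acid synthase, fell by 0.89 (adjusted p = 0.0148) but was not called without DEX-24h replicate 1 or 2 or DEX-6h replicate 3. The number of type 2 genes that fell was 3 without DEX-24h replicate 3 and 2 without DEX-6h replicate 1. The surfactant protein genes Sftpc and Sftpb did not pass (-0.55 ± 0.21 and 0.59 ± 0.24, adjusted p = 0.0582 and 0.0703). In type 1 cells, Akap5 rose from 9.91, 11.9 and 18.7 FPKM at 6 h to 50.8, 34.0 and 42.7 FPKM at 24 h (1.68 ± 0.39, adjusted p = 0.00375), and Cav1 and Clic5 rose by 0.76 and 0.71. The number of type 1 genes that rose was 1 without DEX-24h replicate 1 or 2 or DEX-6h replicate 1. The club cell genes Cyp4b1 and Cldn10 fell by 0.81 and 0.77, and 1 of the pair passed without DEX-24h replicate 1 or 2 or DEX-6h replicate 1 or 3. Of 12 genes that clear fluid from the air spaces 2 fell and 0 rose, with a median of -0.06. The water channel Aqp1 was 1 of them and fell from 333, 394 and 259 FPKM at 6 h to 108, 117 and 119 FPKM at 24 h (-1.51 ± 0.26, adjusted p = 0.000407). The 3 subunits of the epithelial sodium channel did not pass.

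Of 31 genes of cell division 28 had a negative log2 fold change and 8 passed, all of them lower, with a median of -0.96. They were the replication genes Mcm3, Mcm5, Mcm6, Mcm7 and Cdc6, the thymidine kinase gene Tk1 and the mitotic genes Plk1 and Birc5. Mcm5 had 2.28, 3.53 and 3.42 FPKM at 6 h and 0.83, 0.75 and 0.81 FPKM at 24 h (log2 fold change -1.92 ± 0.44, adjusted p = 0.00308). DEX-6h replicate 1 had the lowest value of its group in Mcm5, Tk1, Plk1 and Birc5. The count was 5 without DEX-24h replicate 2, 4 without DEX-24h replicate 3 or DEX-6h replicate 2, and 13 with DESeq2. The median was -0.87 in Sham, -1.02 in SAP, -1.21 in Emo, where 20 members fell (16.8% of all genes), and -1.36 in Con. Of 18 hypoxia and glycolysis genes 7 fell, led by Hk2 and Ndrg1 (-1.17 ± 0.34 and -0.87 ± 0.16, adjusted p = 0.0138 and 0.000579), with a median of -0.36. The glycolytic genes Pfkl, Eno1 and Aldoa fell by 0.66, 0.63 and 0.51. Of 15 nuclear genes of oxidative phosphorylation 5 fell, Uqcrc1 most (-0.75 ± 0.12, adjusted p = 0.000157), while 5 of 11 genes of the mitochondrial genome rose, by 0.51 to 0.91 on the log2 scale. The mitochondrial count was 0 without DEX-6h replicate 3, 1 without DEX-24h replicate 2 or DEX-6h replicate 2, 3 without DEX-24h replicate 1 or 3, and 2 when the DEX libraries were fitted alone. Gene length moved with the change as well: the median log2 fold change was 0.13 in the fifth of genes with most reads per FPKM, a stand-in for length, and -0.03 in the fifth with fewest, and its part in these results was not tested.

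Stress pathways moved in few members. Of 17 genes of unfolded protein and amino acid stress 1 rose and 3 fell. Dnajb9, a chaperone of the endoplasmic reticulum, had 11.6, 10.1 and 10.1 FPKM at 6 h and 25.4, 22.7 and 24.4 FPKM at 24 h (log2 fold change 1.20 ± 0.23, adjusted p = 0.000949), while Sesn2, Asns and Herpud1 fell by 0.84, 0.80 and 0.60. Of 10 p53 targets the death receptor gene Fas and the p53 inhibitor gene Mdm2 rose by 0.86 and 0.44, and Sesn2 is the 1 that fell. Of 13 heat shock genes 1 passed, Bag3, which fell by 0.70. None of 11 genes of the NRF2 response to oxidants and none of 12 genes of heart muscle passed edgeR's test (3 and 1 at an unadjusted p under 0.05, 1 and 0 by DESeq2), while 2 and 5 fell with the DEX libraries fitted alone and the replicate number as a block. Of 14 enzymes of arachidonate metabolism, Hpgd, which inactivates prostaglandins, rose from 11.1, 22.0 and 27.5 FPKM at 6 h to 39.3, 53.1 and 57.3 FPKM at 24 h (1.33 ± 0.38, adjusted p = 0.0126), Ptgs1 rose by 0.63 and Alox5, which starts leukotriene synthesis, fell by 0.76. Dnajb9 and Sesn2 were called without each of the 6 rats in turn. Herpud1, Bag3 and Ptgs1 were called only in the full set, Hpgd was lost without DEX-6h replicate 1, Alox5 without DEX-24h replicate 1, Fas without DEX-6h replicate 1 or 3, Asns without DEX-24h replicate 1 or 2 or DEX-6h replicate 1, and Mdm2 without DEX-24h replicate 3 or any 1 of the DEX-6h rats.

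Genes of the circadian clock were read because the lungs were taken at different hours after the operation, whose time of day is not given in the sources used here. Clock rose from 2.32, 1.83 and 2.32 FPKM at 6 h to 4.42, 3.45 and 4.16 FPKM at 24 h (log2 fold change 0.92 ± 0.20, adjusted p = 0.00236) and Nr1d2, a repressor of the loop, from 5.29, 10.1 and 10.9 FPKM at 6 h to 21.8, 13.5 and 14.0 FPKM at 24 h (0.93 ± 0.27, adjusted p = 0.0139). Nfil3, which is also a cytokine and glucocorticoid response gene, fell from 46.6, 27.0 and 22.6 FPKM at 6 h to 10.7, 13.3 and 12.1 FPKM at 24 h (-1.41 ± 0.40, adjusted p = 0.012), Cry1 fell by 0.78, Usp2 by 0.76 and Cry2 by 0.40. The other 13 clock entries, which include Arntl, Dbp, Per1, Per2 and Per3, did not pass. In Sham, which differed by the same hours, Clock and Nr1d2 moved by 0.51 ± 0.20 and 0.87 ± 0.27, without passing (adjusted p = 0.144 and 0.082). In SAP Clock rose by 1.00 (adjusted p = 0.00682) and Nr1d2 did not pass (-0.06, adjusted p = 0.907), while 3 of 6 activators rose (median 0.96) and 6 of 13 repressors and output genes fell (median -0.66), against 3.17% of all genes that rose and 2.84% that fell in SAP. In Emo both rose, by 0.82 and 0.87 (adjusted p = 0.00347 and 0.0152), in a group in which 17.3% of all genes rose. Clock remained called without each of the 6 rats in turn, while Nr1d2 was not called without DEX-24h replicate 1 or DEX-6h replicate 1, or when the DEX libraries were fitted alone, with or without the replicate number as a block, and all 4 falling genes were lost without DEX-24h replicate 1 and at least 1 of them without each of the other rats except DEX-6h replicate 2.

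Of the genes that the study followed further, Serpinb9, Tbx2, Susd2, Sema7a, Maff, Socs2, Cdkn1a and Serpina1 did not pass between DEX-24h and DEX-6h. Cebpb, a transcription factor of inflammation, fell from 501, 367 and 328 FPKM at 6 h to 211, 224 and 196 FPKM at 24 h (-0.91 ± 0.28, adjusted p = 0.0185), and Fgfr4 from 5.91, 8.09 and 12.8 FPKM at 6 h to 3.20, 5.02 and 4.08 FPKM at 24 h (-1.09 ± 0.38, adjusted p = 0.0354). The changes of Cxcl12 and Nrp1 are given above.

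To ask which changes belonged to the DEX rats, the change from 6 to 24 h was set beside that of the other groups, whose libraries are not shared with the DEX pair. At the same threshold 386 genes (2.42%) were DEGs in SAP, 41 (0.257%) in Sham and 1500 (9.41%) in Emo. Of the 514 genes up-regulated in DEX, 271 were up-regulated in Emo (52.7% of the DEX list and 26.9% of the Emo list), 34 in SAP (6.61% and 31.2%) and 15 in Sham (2.92% and 38.5%). Of the 623 down-regulated genes, 178 were down-regulated in Emo (28.6% and 36.3%), 145 in SAP (23.3% and 52.3%) and 0 in Sham, which had 2. The up-regulated DEX genes were higher at 24 h in 94.4% of cases in Emo, 84.8% in SAP, 88.3% in Sham and 66.9% in Con, where 52.1%, 51.9%, 51.6% and 48.5% of all genes were higher. The down-regulated DEX genes were lower in 80.6% of cases in Emo, 87.5% in SAP, 78.2% in Sham and 78.7% in Con, where 47.9%, 48.1%, 48.4% and 51.4% of all genes were lower. Their median log2 fold change was -1.68 in DEX, -0.75 in Emo, -0.90 in SAP, -0.33 in Sham and -0.39 in Con, and that of the up-regulated genes was 1.31, 1.10, 0.48, 0.54 and 0.16 in the same order. Across the 14354 genes with at least 500 reads in all libraries together, the time changes in DEX correlated with those in Emo (Spearman rho = 0.677, Pearson r = 0.560), Sham (0.567 and 0.426), SAP (0.537 and 0.518) and Con (0.303 and 0.324), so that the order of Sham and SAP depends on the measure. These are descriptions across genes, which are not independent, of groups that share the hours of sampling.

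**Figure D4:**
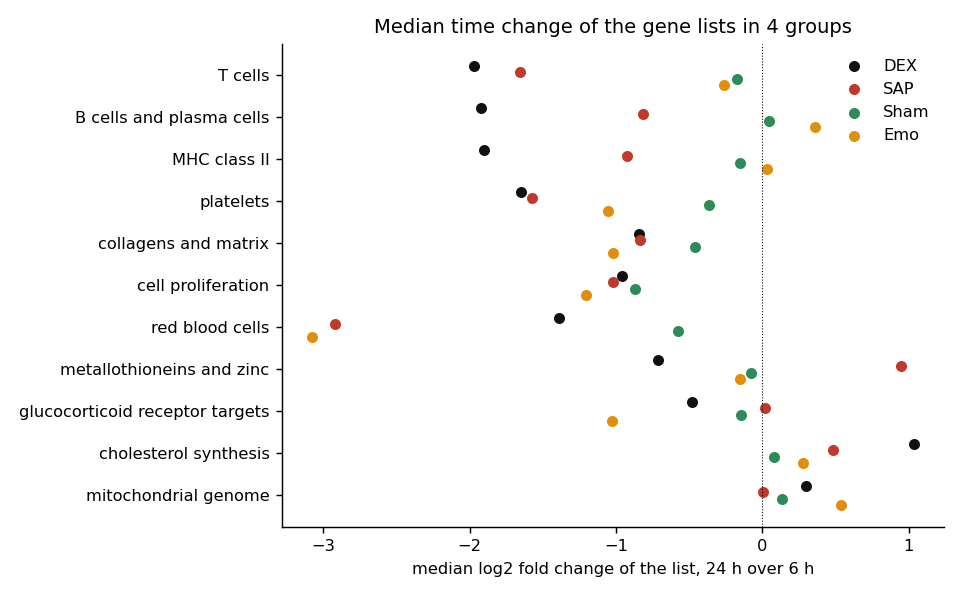
Median log2 fold change (24 h over 6 h, x axis) of the tested members of 11 gene lists in the DEX, SAP, Sham and Emo groups. The medians of T cell, B cell and MHC class II genes are lowest in DEX (-1.97, -1.92 and -1.90), and that of cholesterol synthesis is highest in DEX (1.04).

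The median of the T cell list was -1.97 in DEX, -1.66 in SAP, -0.26 in Emo and -0.17 in Sham, and 5 of its genes fell in SAP, where 2.84% of all genes fell. B cell genes had medians of -1.92, -0.81, 0.36 and 0.05 in the same order, and MHC class II genes had -1.90, -0.92, 0.03 and -0.15. Of the class II genes 2 fell in SAP and 1 in Emo, where 2.84% and 16.8% of all genes fell. Of the B cell genes 0 fell in either group. No member of these 3 lists passed the test of the difference between DEX and another group, at an adjusted p of 0.05 in the same edgeR model. At an unadjusted p under 0.05 the fall was larger in DEX than in Sham for 9 T cell, 7 B cell and 6 class II genes, than in Emo for 5, 8 and 7, and than in SAP for 0, 4 and 3, where 5.89%, 4.91% and 7.33% of all genes had a lower time change in DEX than in Sham, Emo and SAP at that threshold, and DESeq2 called 0, 3 and 3 against Sham, 0, 4 and 4 against Emo and 0, 0 and 2 against SAP. The smallest adjusted p was that of Cd74, which differed from its change in Sham by -1.76 ± 0.40 (adjusted p = 0.0541), from that in SAP by -1.38 (adjusted p = 0.139) and from that in Emo by -1.66 (adjusted p = 0.115). Cholesterol genes had medians of 1.04 in DEX, 0.48 in SAP, 0.28 in Emo and 0.08 in Sham, and 6 of them rose in SAP and 7 in Emo, where 3.17% and 17.3% of all genes rose. In Emo 2 of them fell, where 16.8% of all genes fell, and 0 fell in SAP. Of the list 3 members passed the test of a difference from Sham and 0 that from SAP or Emo, while 13, 7 and 11 had a higher time change in DEX than in Sham, SAP and Emo at an unadjusted p under 0.05, where 4.66%, 6.27% and 5.03% of all genes did, and DESeq2 called 6, 0 and 2.

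The test of the difference itself named few genes. The time change in DEX differed by at least 2-fold from that in SAP for 22 genes (0.138%), from that in Sham for 49 (0.308%) and from that in Emo for 9 (0.0565%). Together these were 69 genes, of which 59 passed against 1 group, 9 against 2 groups (Abca8a, Art2b, Ccr7, Fbln1, Plk2, Postn, Rin3, Sox18 and Syt15), and Apln against all 3. At an unadjusted p under 0.05, 773, 768 and 733 genes differed by at least 2-fold, DESeq2 called 173, 181 and 96, and with the replicate number as a block the counts were 14, 51 and 4. The DEX vs SAP count fell to 0 without SAP-6h replicate 2, to 2 without DEX-6h replicate 1, to 3 without DEX-24h replicate 2, to 6 without DEX-24h replicate 1, to 7 without SAP-6h replicate 3, to 8 without DEX-6h replicate 2 and to 14 without DEX-24h replicate 3, and it rose to 47 and 38 without SAP-24h replicates 2 and 3. The count against Sham was lowest, 14, without Sham-24h replicate 2, 15 without DEX-24h replicate 1, 17 without DEX-24h replicate 3 or Sham-6h replicate 2, 23 without DEX-6h replicate 3 or Sham-6h replicate 1, 24 without DEX-6h replicate 1 and 32 without DEX-24h replicate 2. The count against Emo was 1 without DEX-24h replicate 2, Emo-24h replicate 1 or 2 or Emo-6h replicate 1, 2 without DEX-6h replicate 2, 3 without DEX-24h replicate 1 or DEX-6h replicate 1, 4 without DEX-24h replicate 3, 5 without Emo-6h replicate 2 and 21 without Emo-24h replicate 3. Of the genes described next, 10 differed from Sham in the main model and in each of 18 alternatives of scaling, filter, tool, block and single rats left out, namely Abca8a, Apln, Ccr7, Grk5, Msmo1, Plk2, Postn, Smad7, Sox18 and Vtn. Each difference from SAP or Emo given here was lost in at least 1 of 18 alternatives.

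Apln fell in the 3 groups that received taurocholate, in SAP by 2.43 and in Emo by 2.71 on the log2 scale, and more in DEX than in each of them. In Sham its change did not pass (-0.74 ± 0.43, adjusted p = 0.353). Its level at 6 h was 53.7 to 113 FPKM in DEX, 48.0 to 84.3 FPKM in SAP, 38.4 to 81.3 FPKM in Emo and 9.64 to 22.7 FPKM in Sham. At 24 h it was 0.79 to 1.45 FPKM in DEX, 9.96 to 15.6 FPKM in SAP, 6.87 to 12.8 FPKM in Emo and 5.20 to 15.2 FPKM in Sham. The groups that received taurocholate thus overlapped at 6 h, and at 24 h every DEX rat lay below every rat of the other 3 groups. The log2 time change in DEX was lower by 3.83 ± 0.64 than in SAP (adjusted p = 0.0162), by 5.52 ± 0.66 than in Sham (adjusted p = 0.00027; -4.88 without Sham-24h replicate 1) and by 3.55 ± 0.64 than in Emo (adjusted p = 0.0307). Postn was 38.0 FPKM or more in every rat of the 4 groups at 6 h and 2.55 to 4.62 FPKM in the DEX rats at 24 h, against 12.6 to 22.2 FPKM in SAP and 47.8 to 99.2 FPKM in Sham. Its time change was lower in DEX than in Sham by 3.90 ± 0.57 (adjusted p = 0.00408) and than in Emo by 3.39 ± 0.57 (adjusted p = 0.0209), while the difference from SAP did not pass (adjusted p = 0.118). Ccr7 fell more in DEX than in Sham (difference -3.77 ± 0.63, adjusted p = 0.00762) and than in Emo (-3.52 ± 0.63, adjusted p = 0.0307, and 0.0507 with the replicate number as a block). It also fell in SAP, by 1.48 on the log2 scale (adjusted p = 0.0404), and the difference from SAP did not pass (-2.66, adjusted p = 0.0789). Vtn, the adhesion protein vitronectin, was 6.43 to 9.32 FPKM in the DEX-24h rats and 22.4 FPKM or more in each rat of the other 3 groups at either hour, and its change differed from that in Sham by -2.30 ± 0.36 (adjusted p = 0.00681), while its differences from SAP and Emo did not pass (adjusted p = 0.0521 and 0.115).

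The rise of several genes was larger in DEX than in Sham, and Sox18 and Kdr were low in DEX at 6 h. Sox18 was 19.1 to 23.9 FPKM in the DEX-6h rats, 42.8 to 56.5 FPKM in SAP and 92.8 to 98.7 FPKM in Sham at that hour. At 24 h the DEX rats had 81.2 to 96.8 FPKM and the Sham rats 73.1 to 109 FPKM, which overlap. Its time change was higher in DEX than in Sham by 2.15 ± 0.34 (adjusted p = 0.00681) and than in SAP by 1.72 ± 0.34 (adjusted p = 0.0452, and 0.0503 with the block). Kdr followed the same course, with 11.1 to 15.9 FPKM in DEX and 29.0 to 47.6 FPKM in Sham at 6 h, and overlapping levels at 24 h (difference 1.49 ± 0.33, adjusted p = 0.0427, and 0.0521 with the replicate number as a block). Eng also differed from Sham (1.71 ± 0.37, adjusted p = 0.0427). Smad7, an inhibitor of TGF-beta and BMP signalling, had 10.9 to 12.9 FPKM at 6 h and 23.4 to 29.0 FPKM at 24 h in DEX, and its change differed from Sham by 1.23 ± 0.22 (adjusted p = 0.0162). Another 2 genes of that pathway, chosen after their values were seen, differed from Sham as well, the inhibitor Smad6 by 1.94 ± 0.38 (adjusted p = 0.0251) and Smad9 by 2.05 ± 0.40 (adjusted p = 0.0211). Grk5, a kinase that desensitises receptors, rose more in DEX than in Sham by 1.39 ± 0.22 (adjusted p = 0.00681). It also rose in SAP and Emo, by 1.15 and 1.02 on the log2 scale (adjusted p = 0.000791 and 8.32e-05). The sterol genes Msmo1, Insig1 and Cyp51 rose more by 1.19, 1.31 and 1.14 (adjusted p = 0.00814, 0.0182 and 0.0417), and the same 3 genes rose in SAP as well, by 0.87, 1.10 and 0.75 on the log2 scale. In Emo, Sox18, Kdr, Smad9, Smad7, Msmo1 and Insig1 rose too, by 0.73, 0.66, 0.89, 0.42, 0.59 and 0.50. Their adjusted p in edgeR's test ranged from 0.00349 (Msmo1) to 0.0406 (Smad7). Smad6 and Cyp51 did not pass in Emo, and Eng fell there by 0.67 (adjusted p = 0.049). Of Kdr, Eng, Smad7, Smad6, Smad9, Grk5, Msmo1, Insig1 and Cyp51 none passed the test of a difference from SAP (adjusted p from 0.0552 for Smad7 to 0.68 for Insig1) or from Emo (from 0.0976 for Msmo1 to 0.452 for Grk5) in the same edgeR model, nor did Sox18 that from Emo (adjusted p = 0.142).

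**Figure D5:**
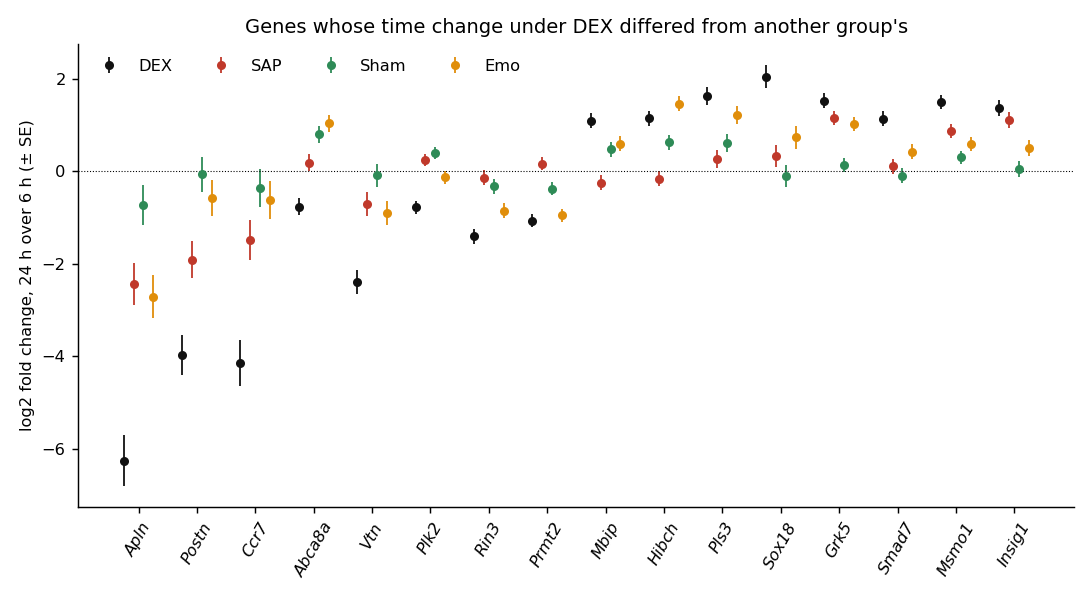
Log2 fold change from 6 to 24 h, with its SE, of 16 genes in the DEX, SAP, Sham and Emo groups (3 rats per group and hour). Each gene drawn passed the test of a difference between DEX and at least 1 other group, and Apln lies lowest in DEX at -6.26.

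Against SAP the genes with the smallest p were Prmt2, Apln, Mbip, Kazn and Hibch. Mbip and Hibch rose in DEX, while their changes in SAP were -0.24 and -0.16, with differences of 1.34 ± 0.23 and 1.31 ± 0.23 (adjusted p = 0.0162 and 0.0165). Hibch, an enzyme of valine breakdown, had 2.89, 2.68 and 3.24 FPKM in the DEX-6h rats and 5.66, 6.34 and 7.24 FPKM in the DEX-24h rats. Pls3, an actin-bundling protein, had 20.2, 25.1 and 26.4 FPKM at 6 h and 67.0, 69.8 and 81.9 FPKM at 24 h and differed from SAP by 1.37 ± 0.27 (adjusted p = 0.0407). Prmt2, an arginine methyltransferase, had 49.9, 54.7 and 55.1 FPKM at 6 h and 20.5, 27.1 and 27.6 FPKM at 24 h and fell in DEX, while its change in SAP was 0.16 (difference -1.23 ± 0.20, adjusted p = 0.0162). Rin3 fell from 27.2, 32.7 and 33.2 FPKM at 6 h to 13.3, 12.3 and 9 FPKM at 24 h, with a difference from SAP of -1.27 ± 0.23 (adjusted p = 0.0239). The time changes of Kazn and Plk2 were also lower in DEX than in SAP, by 1.42 and 1.02 (adjusted p = 0.0162 and 0.0313), and Plk2 differed from Sham in the same direction (-1.17, adjusted p = 0.00762). Adh7, an alcohol and retinol dehydrogenase, had the largest difference from SAP, 5.85 ± 1.08 (adjusted p = 0.0253), and fell in SAP by 3.23. The difference was 5.17 without DEX-24h replicate 2 and was lost in 6 of 18 alternatives, 5 of which left out a rat (DEX-24h replicate 2, any 1 of the DEX-6h rats or SAP-6h replicate 2). Its DEX values overlapped, with 0.24, 0.21 and 0.17 FPKM at 6 h and 0.06, 2.19 and 1.56 FPKM at 24 h. None of Prmt2, Mbip, Kazn, Hibch, Pls3, Rin3, Plk2 and Adh7 passed the test of a difference from Emo (adjusted p from 0.208 for Plk2 to 0.911 for Prmt2). In Emo, Hibch, Pls3, Mbip and Adh7 rose by 1.46, 1.21, 0.59 and 3.57 on the log2 scale. Prmt2, Rin3 and Kazn changed there by -0.95, -0.86 and -0.72. Their adjusted p in edgeR's test ranged from 9.39e-06 (Hibch) to 0.00674 (Mbip). Plk2 did not pass in Emo (-0.13, adjusted p = 0.474).

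Against Emo, the other drug given at the same hours, Abca8a had the smallest p. This lipid transporter gene fell in DEX from 6.43, 7.21 and 7.69 FPKM at 6 h to 3.86, 4.27 and 4.23 FPKM at 24 h and rose in Emo by 1.04 on the log2 scale (difference -1.81 ± 0.26, adjusted p = 0.00782), and its difference from Sham was -1.56 (adjusted p = 0.00762). Lrrc4 fell in DEX from 2.35, 2.33 and 3.37 FPKM at 6 h to 0.87, 0.83 and 1.01 FPKM at 24 h and differed from Emo by -2.44 ± 0.44 (adjusted p = 0.0307). The amino acid transporter gene Slc1a4 had a higher time change in DEX, by 1.21 ± 0.23 (adjusted p = 0.0448). With the replicate number as a block the adjusted p of Lrrc4 and Slc1a4 against Emo was 0.0507. The genes Apln, Postn, Ccr7, Art2b and Bank1 had lower time changes in DEX than in Emo, and Bank1 was not called with the replicate number as a block. Bank1, an adaptor of B cells, rose in Emo and SAP by 1.97 and 1.64 on the log2 scale and did not pass in DEX (0.13, adjusted p = 0.736).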

How the data were processed

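Total RNA of lung from 30 male rats, 3 in each of 10 groups, was made into directional poly-A libraries and sequenced as paired reads of 150 nt. The authors mapped the reads to the Ensembl v6 rat genome with TopHat2, allowing up to 2 mismatches and discarding reads that mapped more than once, and deposited a table of counts per gene and a table of FPKM values (fragments scaled to gene length and library size). Adaptors and low-quality bases had been clipped with the FASTX-Toolkit. The program that counted reads per gene and the version of TopHat2 are not given in the sources used here. TopHat2, bcl2fastq and edgeR are the tools named in the submitters' processing notes. Totals were 28107243 to 33095751 reads in the DEX libraries and 16813949 to 34692306 in all 30, and every row names a gene. The lowest total was that of SAP-6h replicate 3. In the study's mapping summary this library had more uniquely mapped reads than SAP-6h replicate 1, which had 26516360 reads on genes. The reason is not given in the sources used here. The labels name no animal and give only the group and a replicate number. The study's methods state that lungs of 3 rats at each hour of each treatment were used for sequencing. The libraries of a group were therefore taken to be separate animals, and p-values to measure the spread between rats.

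The deposited counts of 22914 genes were filtered with filterByExpr (minimum count 10, minimum total 15), which kept 15934 genes, scaled by TMM and fitted with edgeR 4.0.16 (R 4.3.3) quasi-likelihood, 1 mean per group, on all 30 libraries (20 residual df). A DEG had a Benjamini-Hochberg adjusted p below 0.05, taken over the genes fitted, and changed at least 2-fold. FPKM values, printed per rat, were not tested in the main model. The SE is the absolute log2 fold change over the square root of the F statistic of the quasi-likelihood test. It thus rests on the spread fitted over all 30 libraries and not on the 3 rats per group alone. The difference between time changes was tested, two-sided, in the same model. Named were the 12 genes each way with the largest fold change and the 6 with the largest difference of mean FPKM (both with a gene symbol, at least 1 FPKM in a group and groups that do not overlap), the 3 lncRNAs each way with the largest fold change, the 5 genes each way with the smallest p per difference, members of 40 gene lists and the genes that the study followed by PCR. Some genes that this rule names are not reported here. The members and lists were chosen with earlier results of these data known. Intervals of read ratios are exact (95%) and cover counting error only. Promoters are RefSeq sequences of GRCr8, used for their letters only.

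Alternatives were RLE scaling, no filter or a CPM of 1 in 3 libraries, only the groups compared, DESeq2 1.42.0, limma 3.58.1 on log2(FPKM + 1) and log2(FPKM + 0.1) of genes with a mean of at least 0.1 FPKM, each rat left out, and the replicate number as a block. The block in the DEX libraries alone was added after seeing the data. Deviations from the group means of same-numbered DEX rats correlated by 0.221, 0.241 and 0.244 across genes, above 0.1 in every pair. Differently numbered Sham rats reached 0.376 (Sham-24h replicate 3 and Sham-6h replicate 2), so such values cannot show that the numbers pair the DEX libraries. The labels give only the numbers. The scripts were tested on simulated data.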

Additional observations from a re-analysis of the deposited data

Results flagged for a closer look

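The values below were picked out because the change from 6 to 24 h in DEX differed from that in another group by a test of the difference itself (edgeR's quasi-likelihood test, Benjamini-Hochberg adjusted over 15934 genes). They are log2 differences, DEX minus the other group.

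Against SAP, Adh7 differed by 5.85, Apln by -3.83, Hibch by 1.31, Kazn by -1.42, Mbip by 1.34, Plk2 by -1.02, Pls3 by 1.37, Prmt2 by -1.23, Rin3 by -1.27 and Sox18 by 1.72. The adjusted p ranged from 0.0162 (Prmt2) to 0.0452 (Sox18). Prmt2 was lost in 2 of 18 alternatives and Sox18 in 12.

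Against Sham, the differences that held in 18 of 18 alternatives were those of Abca8a (-1.56), Apln (-5.52), Ccr7 (-3.77), Grk5 (1.39), Msmo1 (1.19), Plk2 (-1.17), Postn (-3.90), Smad7 (1.23), Sox18 (2.15) and Vtn (-2.30). Cyp51 (1.14), Eng (1.71), Insig1 (1.31), Kdr (1.49), Smad6 (1.94) and Smad9 (2.05) were lost in 4 (Smad9) to 11 (Kdr) of them.

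Against Emo, Abca8a differed by -1.81, Apln by -3.55, Ccr7 by -3.52, Lrrc4 by -2.44, Postn by -3.39 and Slc1a4 by 1.21, and the calls were lost in 1 (Abca8a) to 14 (Slc1a4) of 18 alternatives.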

How the results depend on the processing

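The count of 1137 DEGs lay between 823 and 1211 under the alternatives, except 425 with limma on log2(FPKM + 1) (151 up, 274 down), 1491 at an unadjusted p under 0.05 with the same fold limit, and the set with no fold limit, which gave 4128 (2170 up, 1958 down). On leaving out single rats it ranged from 823 to 1028, with 354 to 535 up and 466 to 581 down. DESeq2 called 1211 genes, of which 1094 were shared. The differences in time change were less settled. DESeq2 called 173 genes against SAP, 181 against Sham and 96 against Emo, an unadjusted p under 0.05 gave 773, 768 and 733, and fitting only the groups compared left 2 against SAP and 1 against Emo and gave 65 against Sham, of which 36 were among the 49. Leaving out single rats gave 0 to 47, 14 to 64 and 1 to 21. Counts of list members moved often, since many are small, and the report gives the larger moves. The other scalings moved the median of all genes by at most 0.0289 on the log2 scale.

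With the replicate number as a block, 1108 DEGs were called (1160 with the DEX libraries alone), and the differences in time change fell to 14 against SAP and 4 against Emo, with 51 against Sham. The falling glucocorticoid targets numbered 6 in the main model, 5 with the block in it, 11 with the DEX libraries fitted alone and 12 with both changes. Of the genes named in DEX, the block in the main model lost the calls of Dlk1, Gpr84, Map3k6, Ms4a1, Mt2A, Socs3 and Vwf, and both changes together lost those of AABR07052504.1, AC141334.3, Adh7, Nr1d2 and Pax5. In SAP, Sham and Emo not every same-numbered pair correlated, and whether the numbers pair libraries in any group is not known.

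Of 175 named genes in DEX, 93 kept their side of the threshold throughout, and among 2260 values 278 lost and 18 gained a call and 0 changed sign. Of the calls not qualified in the report, Rgcc was lost without DEX-6h replicate 3, Hk2 and AC141334.3 without DEX-6h replicate 1, Itga2b without DEX-24h replicate 2, Col6a1 and Col6a2 without DEX-24h replicate 1, Col1a1 without DEX-24h replicate 1 or DEX-6h replicate 3, Col1a2 without DEX-24h replicate 1 or 3, Dhcr7 without DEX-24h replicate 3 or DEX-6h replicate 1, Nfil3 without DEX-24h replicate 1 or DEX-6h replicate 1, Cebpb without either of these or DEX-24h replicate 3, and Msr1 without DEX-24h replicate 2 or DEX-6h replicate 1 or 3. Marco, the SNORD113 copy, Eng, Tek, Tie1, Ednrb and Fgfr4 were lost without 4 rats each, and Col5a1 and Cav1 without 5. Depth limits the genes with few reads, such as Mfap4 and Marco, whose ratios have wide intervals.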
